A study of Rattus norvegicus with 24 samples.

Results

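A set of 8 genes, Inhba, Tnfaip6, Adamts1, Tent5b, Rbm24, Jade2, Fam181a and B630019K06Rik, was followed through every group of a study of cultured rat striatal neurons. They were chosen by name from earlier results of these data, because they lay higher after 60 min of SKF, an agonist of the dopamine D1 receptor, or lower after 60 min of JQ1, an inhibitor of BET bromodomain proteins. They are 8 of the 32883 genes in the files and 8 of the 13999 genes that passed the filter on low values. The choice used SKF and JQ1 at 60 min, so those differences are given here as descriptions with no test, while iBD2, a second bromodomain inhibitor, and all differences at 24 h were tested. As a set of genes higher with SKF the name holds for 6 of the 8 in both 60 min experiments: Rbm24 lay below DMSO with SKF in both, and Inhba overlapped DMSO in experiment 1 and lay below it in experiment 2.

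All cultures were neonatal Rattus norvegicus primary striatal neurons on day 7 in culture, and RNA of glial markers was also found in them. Every culture received either drug or the solvent DMSO in its place. Experiment 1 compared SKF plus JQ1, SKF, JQ1 and DMSO for 60 min, experiment 2 compared SKF plus iBD2, SKF, iBD2 and DMSO for 60 min, and experiment 3 compared SKF plus JQ1, SKF, JQ1 and DMSO for 24 h. The labels give no dose, and each group has 2 libraries here, save SKF plus iBD2 with 1. Nothing in the labels says that replicates were cultured separately, so p-values rest on a spread among libraries that may be technical. Levels are FPKM (fragments per kilobase of transcript, relative to the fragments aligned in the library), summed over a gene's transcripts and divided by a size factor per library. Differences are on the log2(FPKM + 0.5) scale, which understates the change of low genes.

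The 23 libraries held 4.36 to 14.9 aligned gigabases. Summed markers of neurons (Rbfox3, Tubb3, Map2, Snap25, Syt1) were at 1290 to 1730 FPKM and those of endothelium at 0.0396 to 0.219 FPKM. The astrocyte markers summed to 89.1 to 101 FPKM in experiment 2, and to 246 to 388 FPKM in experiments 1 and 3, so the cultures of experiment 2 also differed in these markers. In bulk RNA, fewer cells of a type and less RNA per cell cannot be told apart. The 4 genes that served as a check on SKF (Fos, Nr4a2, Sik1 and Crem) all rose with SKF at 60 min in both experiments by limma at an adjusted p under 0.05.

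D1 receptors raise cyclic AMP in the striatal neurons that carry them and, through kinases and transcription factors, switch on immediate early genes within minutes and other activity-dependent genes after them. BET proteins bind acetylated histones through paired bromodomains and help RNA polymerase II leave the promoter, and JQ1 blocks both bromodomains of each protein. Among the 8 genes, Inhba encodes the subunit of the secreted ligand activin A, and Tnfaip6 and Adamts1 encode secreted proteins that act on the extracellular matrix. Tent5b and Rbm24 encode proteins that act on RNA, and Jade2 encodes a subunit of a histone acetyltransferase complex.

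The promoters of 7 of the 8 genes were found in RefSeq (build GRCr8), each as 250 bases before to 50 bases after the start. Those of 3 genes that lay higher with SKF at 60 min are shown, to set their promoters beside that of Rbm24, which did not. They lie at chr5:150978988-150979287 on the plus strand (Tent5b), chr11:38427335-38427634 on the minus strand (Adamts1), chr3:56911148-56911447 on the plus strand (Tnfaip6) and chr17:18493579-18493878 on the minus strand (Rbm24). They run 5′ to 3′, and capitals mark the motif matches described after them.
Tent5b: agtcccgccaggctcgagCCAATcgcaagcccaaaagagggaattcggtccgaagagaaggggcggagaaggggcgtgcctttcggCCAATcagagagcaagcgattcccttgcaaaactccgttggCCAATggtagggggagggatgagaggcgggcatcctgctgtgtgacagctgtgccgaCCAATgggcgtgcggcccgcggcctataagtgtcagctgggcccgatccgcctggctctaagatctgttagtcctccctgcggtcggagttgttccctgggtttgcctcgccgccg
Adamts1: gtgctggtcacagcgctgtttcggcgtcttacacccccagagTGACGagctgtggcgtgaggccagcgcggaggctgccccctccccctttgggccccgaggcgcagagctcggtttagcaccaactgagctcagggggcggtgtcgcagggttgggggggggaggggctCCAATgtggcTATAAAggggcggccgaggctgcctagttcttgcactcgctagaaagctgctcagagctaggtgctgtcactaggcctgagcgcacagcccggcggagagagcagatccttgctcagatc
Tnfaip6: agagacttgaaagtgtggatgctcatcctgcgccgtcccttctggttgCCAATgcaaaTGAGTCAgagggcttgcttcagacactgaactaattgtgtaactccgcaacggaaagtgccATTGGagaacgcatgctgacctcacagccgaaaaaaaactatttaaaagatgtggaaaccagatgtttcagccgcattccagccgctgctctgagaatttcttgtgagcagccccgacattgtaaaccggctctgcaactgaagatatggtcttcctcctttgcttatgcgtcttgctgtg
Rbm24: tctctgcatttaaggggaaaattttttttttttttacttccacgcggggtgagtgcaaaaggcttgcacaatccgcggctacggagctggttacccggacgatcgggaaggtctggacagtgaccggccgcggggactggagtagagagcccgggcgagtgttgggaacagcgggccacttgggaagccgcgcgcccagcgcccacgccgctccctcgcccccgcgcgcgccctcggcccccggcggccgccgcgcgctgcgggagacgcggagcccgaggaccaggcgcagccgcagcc

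Each promoter was searched on both strands for the full cyclic AMP response element TGACGTCA, its core TGACG, the AP-1 site TGANTCA, the TATA box TATAAA, the CCAAT box CCAAT and the serum response element. The core is part of the full element, so a full match would count as both. The full element was in none of the 7 promoters and in 1.83% of all 33469 promoters, and the serum response element was in none of the 7 and in 1.64% of all. The core was in Adamts1 and Fam181a and in 21.2% of all promoters. The AP-1 site was in Tnfaip6 and in 7.33% of all. The TATA box was in Adamts1 and Inhba and in 14.2% of all, and the CCAAT box was in 5 of the 7 (all but Jade2 and Rbm24) and in 37.5% of all. Tent5b held 4 CCAAT boxes and no other motif searched, and the promoters of Jade2 and Rbm24 held none of the 6. A match is a description of these letters, not a site of binding.

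At 60 min, as the choice implies, 6 of the 8 genes lay higher with SKF with no overlap between libraries in both experiments, beside 15.7% of all genes tested in experiment 1 and 26.6% in experiment 2. All 8 lay lower with JQ1 than with DMSO with no overlap, beside 20.9% of all genes, and all 8 lay lower with SKF plus JQ1 than with SKF, beside 22.8% of all genes. With the inhibitor present, SKF plus JQ1 lay above JQ1 with no overlap for 6 of the 8, beside 21.9% of all genes. The genes divided by how SKF plus JQ1 compared with DMSO: Rbm24 lay lowest relative to it (-1.31 log2), followed by Inhba (-0.90), while Tnfaip6 lay close to it (-0.02) and Tent5b above it (0.20).

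**Figure D1:**
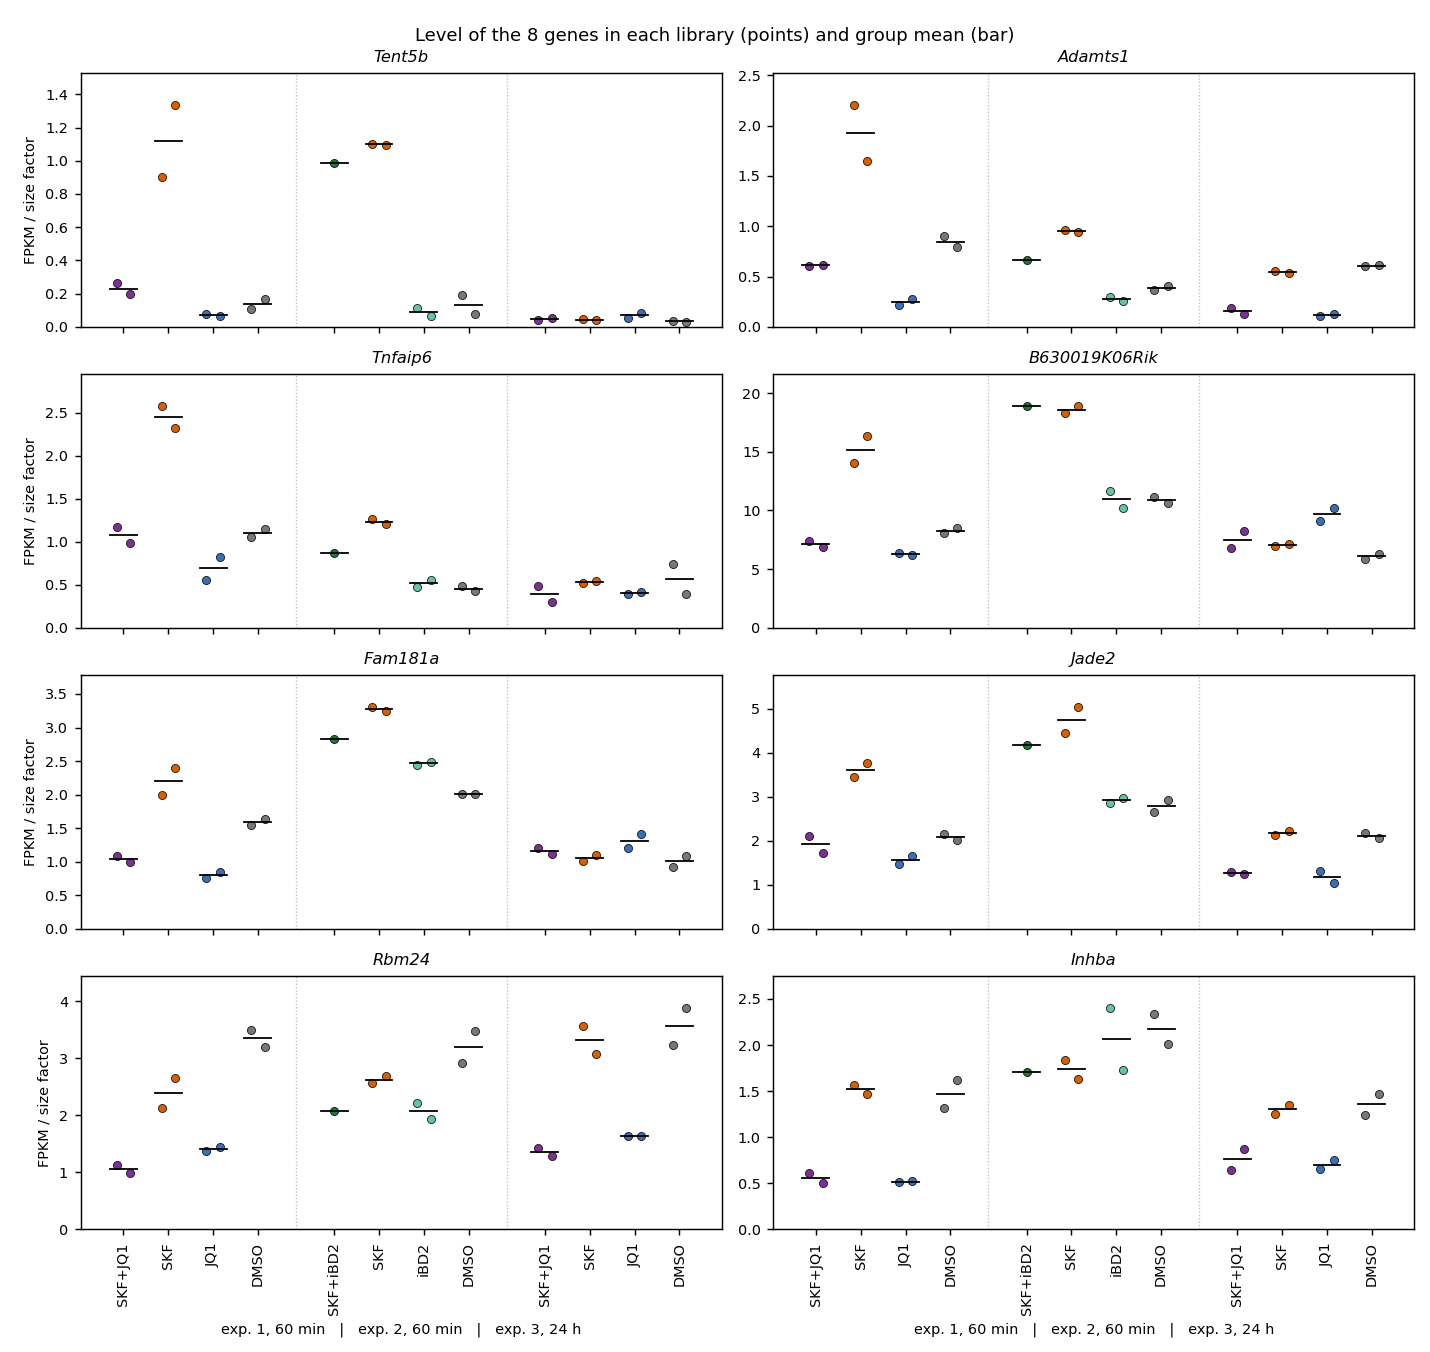
Level of each of the 8 genes (FPKM divided by the size factor, linear axis from 0) in every library (points) with the group mean (bar), by treatment within each of the 3 experiments. Tent5b reached 0.900 to 1.34 FPKM with SKF at 60 min and 0.984 with SKF plus iBD2, and was at 0.0301 to 0.262 in the other groups.

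Inhba (chr17:51898217-51912496, minus strand, 3 exons, Rnor_6.0 as all file coordinates) codes for the inhibin beta A chain, whose dimer is activin A. In experiment 1 it had 0.610 and 0.503 FPKM with SKF plus JQ1, 1.57 and 1.47 with SKF, 0.511 and 0.525 with JQ1, and 1.31 and 1.62 with DMSO. Every JQ1 library was thus below every library without JQ1, and the SKF and DMSO libraries overlapped. Experiment 2 gave 1.71 FPKM with SKF plus iBD2, 1.84 and 1.64 with SKF, 2.41 and 1.73 with iBD2, and 2.34 and 2.01 with DMSO. The iBD2 and DMSO libraries overlapped, with a difference of -0.07 (95% CI -0.34 to 0.21). After 24 h the levels were 0.643 and 0.877 FPKM with SKF plus JQ1, 1.26 and 1.35 with SKF, 0.658 and 0.751 with JQ1, and 1.24 and 1.47 with DMSO. All JQ1 libraries were again below all others: JQ1 lowered it by a log2 difference of -0.62 ± 0.13 against DMSO (SE; limma adjusted p = 0.00059) and of -0.52 ± 0.13 against SKF (limma adjusted p = 0.0024), or -0.95 and -0.79 by limma voom on estimated reads.

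Tnfaip6 (chr3:37545238-37564699, plus strand, 6 exons) codes for a secreted protein that binds hyaluronan and helps to cross-link it. In experiment 1 it had 1.17 and 0.991 FPKM with SKF plus JQ1, 2.58 and 2.32 with SKF, 0.558 and 0.825 with JQ1, and 1.06 and 1.15 with DMSO. SKF libraries were the highest, and those with SKF plus JQ1 overlapped DMSO. The levels in experiment 2 were 0.868 FPKM with SKF plus iBD2, 1.27 and 1.20 with SKF, 0.478 and 0.557 with iBD2, and 0.482 and 0.430 with DMSO. The SKF plus iBD2 library lay between those with SKF and those with iBD2, above iBD2 by 0.43 ± 0.18 (limma adjusted p = 0.46) and below SKF by a difference of -0.34 ± 0.18 (limma adjusted p = 1), and neither passed the test. The 24 h libraries held 0.489 and 0.301 FPKM with SKF plus JQ1, 0.526 and 0.549 with SKF, 0.397 and 0.416 with JQ1, and 0.739 and 0.396 with DMSO. The 2 DMSO libraries spanned those with JQ1, and the difference of -0.22 ± 0.14 did not pass (limma adjusted p = 0.21), but without DMSO replicate 6 it was -0.45 (limma adjusted p = 0.021) and without DMSO replicate 5 it was 0.016 (limma adjusted p = 0.94).

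Adamts1 (chr11:25342126-25350974, minus strand, 9 exons) codes for a secreted metalloprotease that cleaves the proteoglycans versican and aggrecan. In experiment 1 it had 0.603 and 0.617 FPKM with SKF plus JQ1, 2.21 and 1.65 with SKF, 0.222 and 0.280 with JQ1, and 0.900 and 0.792 with DMSO. The 4 groups did not overlap, and SKF plus JQ1 lay between JQ1 and DMSO. In experiment 2 it had 0.666 FPKM with SKF plus iBD2, 0.964 and 0.945 with SKF, 0.295 and 0.259 with iBD2, and 0.366 and 0.401 with DMSO. It rose with SKF in the presence of iBD2, by 0.59 ± 0.13 (limma adjusted p = 0.031), 2.41-fold by group means. That call was lost with a pseudocount of 1 (limma adjusted p = 0.057), with replicate number added to the model (0.091), in a fit of experiment 2 alone (0.14) and without iBD2 replicate 1 (0.083) or 2 (0.15). At 24 h it had 0.191 and 0.124 FPKM with SKF plus JQ1, 0.557 and 0.539 with SKF, 0.106 and 0.130 with JQ1, and 0.605 and 0.612 with DMSO. All JQ1 libraries were below all others. JQ1 lowered it by a log2 difference of -0.84 ± 0.11 against DMSO (limma adjusted p = 5.3e-06) and of -0.67 ± 0.11 against SKF (limma adjusted p = 5.3e-05), and its mean with JQ1 was 0.194 times that with DMSO. By limma voom on estimated reads these differences were -2.33 and -1.82, and that of SKF over iBD2 was 1.25.

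Tent5b (chr5:151692108-151700246, plus strand, 2 exons) codes for a noncanonical poly(A) polymerase. In experiment 1 it had 0.262 and 0.200 FPKM with SKF plus JQ1, 0.900 and 1.34 with SKF, 0.0774 and 0.0629 with JQ1, and 0.105 and 0.169 with DMSO. Experiment 2 gave 0.984 FPKM with SKF plus iBD2, 1.10 and 1.10 with SKF, 0.115 and 0.0678 with iBD2, and 0.193 and 0.0746 with DMSO. It reached 0.5 FPKM in 5 libraries, those with SKF for 60 min without JQ1, and so passed the filter only through these, for which the 4 with SKF alone would suffice. With SKF in the presence of iBD2 it rose by 1.33 ± 0.16 (limma adjusted p = 6.4e-05), 10.8-fold by group means and by 3.36 with limma voom on estimated reads, and the library with both drugs differed from SKF alone by -0.11 (95% CI -0.44 to 0.22). Levels at 24 h were 0.0423 and 0.0508 FPKM with SKF plus JQ1, 0.0447 and 0.0407 with SKF, 0.0537 and 0.0856 with JQ1, and 0.0374 and 0.0301 with DMSO. It was the lowest of the 8 genes in every library at 24 h, with an estimated 3.99 to 9.03 read pairs per library, and no difference there passed the test: the SKF difference was 0.02 (95% CI -0.25 to 0.30). The JQ1 libraries lay above those with DMSO without overlap, 2.07-fold by group means, by 0.09 (95% CI -0.18 to 0.36, limma adjusted p = 0.56) and by 1.05 with limma voom (adjusted p = 0.099).

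Rbm24 (chr17:18671044-18682876, minus strand, 4 exons) codes for an RNA-binding protein known for its role in splicing in heart and skeletal muscle. In experiment 1 it had 1.12 and 0.985 FPKM with SKF plus JQ1, 2.13 and 2.65 with SKF, 1.37 and 1.44 with JQ1, and 3.50 and 3.19 with DMSO. The 4 groups did not overlap, and SKF plus JQ1 lay below JQ1 as SKF lay below DMSO. In experiment 2 it had 2.07 FPKM with SKF plus iBD2, 2.56 and 2.68 with SKF, 2.21 and 1.93 with iBD2, and 2.91 and 3.48 with DMSO. The iBD2 libraries were below those with DMSO, the lowest difference of the 8 genes for iBD2 alone, at -0.52 ± 0.11, and it did not pass the test (limma adjusted p = 0.093). After 24 h Rbm24 had 1.43 and 1.28 FPKM with SKF plus JQ1, 3.56 and 3.08 with SKF, 1.64 and 1.64 with JQ1, and 3.24 and 3.89 with DMSO. JQ1 lowered it by a log2 difference of -0.92 ± 0.11 against DMSO (limma adjusted p = 2.7e-06) and of -1.04 ± 0.11 against SKF (limma adjusted p = 6.3e-07).

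Jade2 (chr10:37270183-37311625, minus strand) codes for a PHD finger protein of the HBO1 histone acetyltransferase complex. Nearly all of its signal came from 1 of its 2 listed transcripts, that of 11 exons, and the other, of 12 exons, was at most at 0.0477 FPKM. In experiment 1 it had 2.11 and 1.73 FPKM with SKF plus JQ1, 3.45 and 3.76 with SKF, 1.47 and 1.65 with JQ1, and 2.14 and 2.03 with DMSO. SKF libraries were the highest, and those with SKF plus JQ1 overlapped DMSO. In experiment 2 Jade2 had 4.17 FPKM with SKF plus iBD2, 4.45 and 5.05 with SKF, 2.87 and 2.97 with iBD2, and 2.65 and 2.92 with DMSO. The library with SKF plus iBD2 was above those with iBD2 by 0.45 ± 0.12, which did not pass (limma adjusted p = 0.097). At 24 h Jade2 had 1.28 and 1.24 FPKM with SKF plus JQ1, 2.14 and 2.23 with SKF, 1.32 and 1.04 with JQ1, and 2.17 and 2.07 with DMSO. All JQ1 libraries were below all others: the difference was -0.64 ± 0.10 against DMSO (limma adjusted p = 3.2e-05) and -0.61 ± 0.10 against SKF (limma adjusted p = 5.6e-05).

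Fam181a (chr6:127207732-127208610, plus strand, 1 exon) codes for a protein whose human form binds TEAD transcription factors. Its values are uncertain, because RefSeq lists RGD1309028, a separate entry of the files at chr6:128973956-128976013 on the same strand and 1.77 megabases away, as a synonym of Fam181a. Whether reads were split between the entries was not tested. In experiment 1 Fam181a had 1.08 and 1.0 FPKM with SKF plus JQ1, 1.998 and 2.40 with SKF, 0.762 and 0.838 with JQ1, and 1.55 and 1.64 with DMSO. The 4 groups did not overlap. In experiment 2 it had 2.83 FPKM with SKF plus iBD2, 3.31 and 3.25 with SKF, 2.45 and 2.49 with iBD2, and 2.01 and 2.01 with DMSO. The iBD2 libraries were above DMSO by 0.24 ± 0.09, which did not pass (limma adjusted p = 0.66). At 24 h it had 1.20 and 1.11 FPKM with SKF plus JQ1, 1.01 and 1.09 with SKF, 1.21 and 1.41 with JQ1, and 0.919 and 1.08 with DMSO. The JQ1 libraries were above those with DMSO, by 0.27 ± 0.09 (limma adjusted p = 0.020), whereas at 60 min JQ1 lay below DMSO by a difference of -0.69 ± 0.09. The 24 h call was lost with the FPKM as deposited (limma adjusted p = 0.065), in a fit of experiment 3 alone (0.061), by limma voom (0.081) and without DMSO replicate 5 (0.17) or JQ1 replicate 6 (0.18). RGD1309028 had 1.19 and 1.15 FPKM with JQ1 at 24 h and 0.737 and 0.917 with DMSO.

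B630019K06Rik (chrX:14889608-14890606, minus strand, 1 exon) carries the name of a mouse clone, and no function is given to it here. It had the highest FPKM of the 8 genes in every library. In experiment 1 it had 7.41 and 6.87 FPKM with SKF plus JQ1, 14.0 and 16.3 with SKF, 6.38 and 6.21 with JQ1, and 8.08 and 8.49 with DMSO. SKF plus JQ1 lay below DMSO and above JQ1 with no overlap. In experiment 2 it had 18.9 FPKM with SKF plus iBD2, 18.3 and 18.9 with SKF, 11.7 and 10.2 with iBD2, and 11.1 and 10.6 with DMSO. The SKF plus iBD2 library lay within the range of the SKF libraries, with a difference of 0.02 (95% CI -0.20 to 0.25), and above the iBD2 libraries by 0.76 ± 0.11 (limma adjusted p = 0.00039). At 24 h it had 6.78 and 8.22 FPKM with SKF plus JQ1, 6.93 and 7.17 with SKF, 9.10 and 10.2 with JQ1, and 5.89 and 6.28 with DMSO. JQ1 raised it by 0.62 ± 0.09 at 24 h (limma adjusted p = 1.4e-05), whereas at 60 min JQ1 lay below DMSO by a difference of -0.37 ± 0.09. SKF plus JQ1 lay below JQ1 at 24 h by a difference of -0.35 ± 0.09 that did not pass (limma adjusted p = 0.072), but did with replicate number added to the model (0.044) and without SKF plus JQ1 replicate 6 (-0.48, 0.021).

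Whether SKF acts on these genes with iBD2 present was asked with libraries outside the comparisons used for the choice. The genes were still chosen with earlier results of these data known. Because the genes had been chosen on SKF or JQ1 at 60 min, a share above that of all genes can follow from the choice. Shares of all genes at an unadjusted p under 0.05 or by limma voom are not given beside the counts below. Nothing particular to the 8 is read from those counts. Tent5b passed the filter only through SKF libraries at 60 min, the SKF plus iBD2 library among them, so its call adds no independent support. SKF plus iBD2 against iBD2 gave higher levels of Tent5b, B630019K06Rik and Adamts1, 3 of the 8 genes, while 1.31% of all genes tested were called higher and 1.46% in either direction. Limma voom on estimated reads called 3, and 5 had an unadjusted p under 0.05. The median difference of the 8 was 0.44, against 0.01 for all genes. The lone SKF plus iBD2 library was taken to vary like the other groups. The call of Adamts1 was lost under several alternatives, as given for that gene above, so the count depends on the processing.

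Set against SKF, SKF plus iBD2 gave no call among the 8 genes by limma (0.0214% of all genes called). By unadjusted p under 0.05 it gave 1, Adamts1, with a difference of -0.32, and limma voom called 0. The median of the 8 was -0.17, against 0.00 for all genes, and 7 lay below 0. The widest differences were those of Tnfaip6 (-0.34, 95% CI -0.71 to 0.03), Adamts1 (95% CI -0.60 to -0.04) and Rbm24 (-0.28, 95% CI -0.57 to 0.00). The SKF libraries here also served the choice, so these differences lean towards negative values for genes chosen on a high level with SKF. For JQ1 at 60 min the same setting had given -0.77 (Jade2) to -1.14 (Tent5b) for all 8, in other cultures and with doses not given, so the inhibitors were not compared.

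Against DMSO, iBD2 alone gave no call among the 8 genes by limma (0.186% of all genes called, all of them higher), where the DMSO libraries had also served to choose the genes. The count was 2 at an unadjusted p under 0.05, Rbm24 and Fam181a, and 0 by limma voom, and the median was -0.03 for the 8 and 0.00 for all genes. The SKF effect over iBD2 minus that over DMSO was called for none of the 8 by limma (0.0143% of all genes) or voom, and for 1, Fam181a, at an unadjusted p under 0.05 (-0.42, 95% CI -0.73 to -0.12). Because SKF without iBD2 was used to choose the genes, that difference leans towards negative values.

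**Figure D2:**
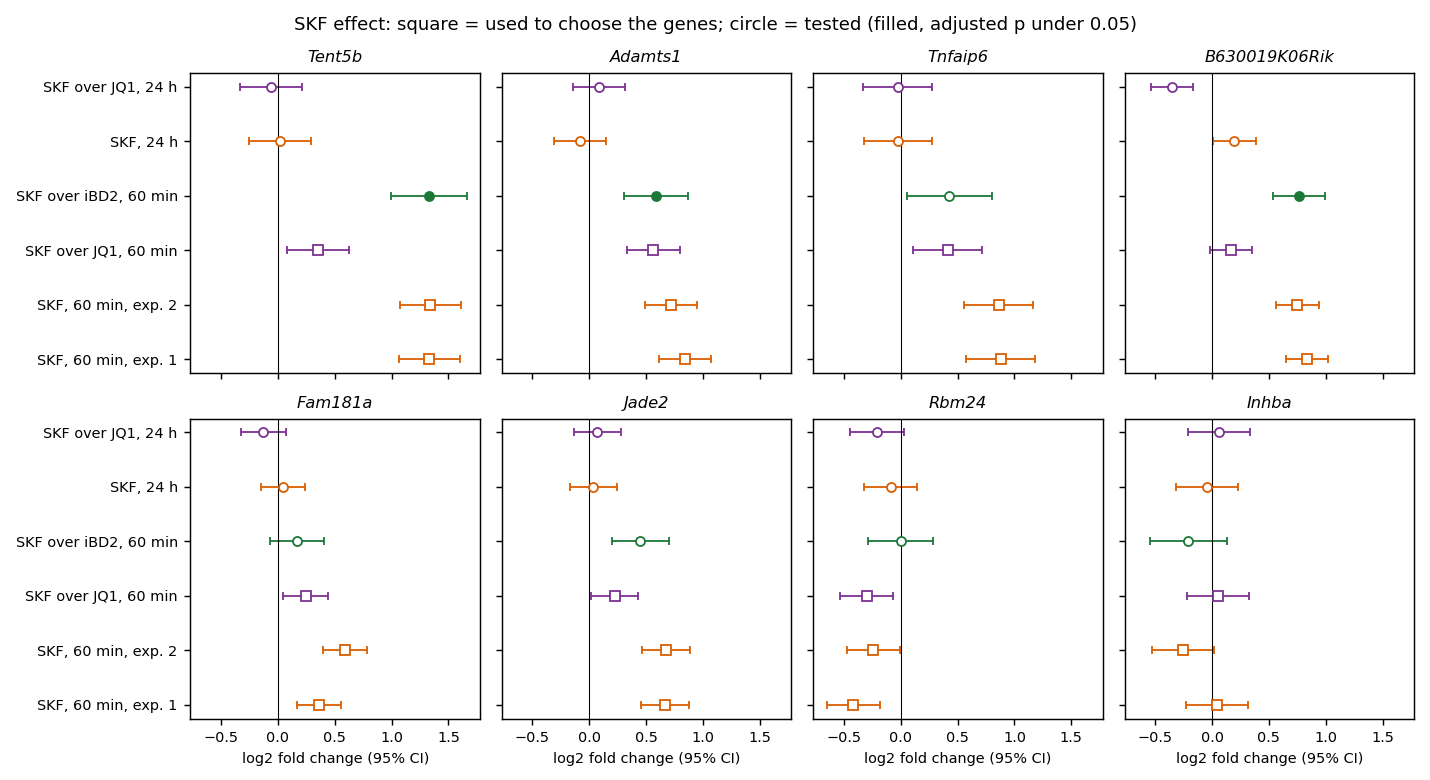
SKF effect on each of the 8 genes (log2 difference, points, with the 95% CI, bars) alone and over JQ1 or iBD2, that is SKF plus inhibitor against inhibitor. Squares were used to choose the genes and circles were tested, filled where the adjusted p was under 0.05. Tent5b, Adamts1 and B630019K06Rik have filled circles over iBD2, and the intervals for SKF alone at 24 h include 0 for 7 of the 8 genes.

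After 24 h of SKF none of the 8 genes differed from DMSO by limma, while 1.49% of all genes were called. At an unadjusted p under 0.05 the count was 1, B630019K06Rik (0.20, 95% CI 0.01 to 0.38), and by limma voom it was 0. The median of the 8 was 0.00, as for all genes. For Adamts1 the 95% CI ran from -0.31 to 0.15 and for Jade2 from -0.17 to 0.24. The SKF differences at 60 min had served to choose the genes and come from other experiments, so the times were not compared. For SKF over JQ1 at 24 h limma called none of the 8 (1.01% of all genes), voom called 0, and 1, B630019K06Rik, had an unadjusted p under 0.05. The SKF effect over JQ1 minus that over DMSO at 24 h was called for none by limma (0.0429% of all genes) or voom. At an unadjusted p under 0.05 it was 1, again B630019K06Rik, at -0.55 (95% CI -0.81 to -0.28, limma adjusted p = 0.28).

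JQ1 for 24 h left the 8 genes divided. Adamts1, Jade2, Rbm24 and Inhba fell, B630019K06Rik and Fam181a rose, and Tnfaip6 and Tent5b did not pass the test. That is 6 of 8 called, beside 56.3% of all genes: 4 lower, beside 28.3% of all genes, and 2 higher, beside 28% of all genes. By limma voom 5 were called, all of these but Fam181a. The median was -0.42 for the 8 and 0.01 for all genes. In the presence of SKF, JQ1 lowered the same 4 genes at 24 h and raised none, beside 28.2% of all genes called lower and 56.5% in either direction. The shares of all genes were large, so a count of this size is not particular to the 8. With the FPKM as deposited, calls over all genes were 2588 higher and 4963 lower for JQ1 against DMSO, where the scaled values gave 3926 higher and 3962 lower. For SKF plus JQ1 against SKF they were 2884 higher and 4677 lower as deposited, and 3962 higher and 3941 lower as scaled. The 4 falls were called under both.

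**Figure D3:**
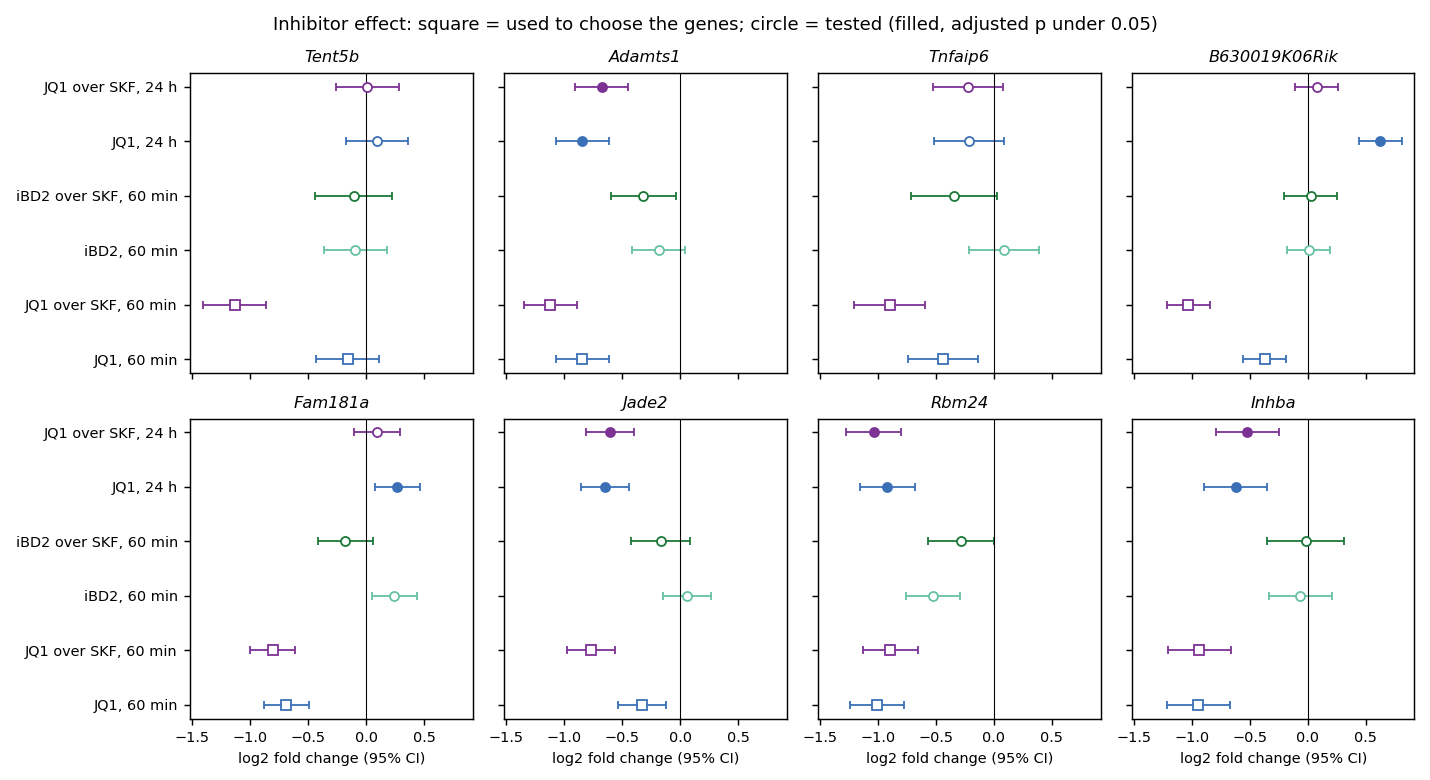
Inhibitor effect on each of the 8 genes (log2 difference, points, with the 95% CI, bars) alone and over SKF, that is SKF plus inhibitor against SKF. Squares were used to choose the genes and circles were tested, filled where the adjusted p was under 0.05. Adamts1, Jade2, Rbm24 and Inhba have filled circles below 0 for JQ1 at 24 h with and without SKF, B630019K06Rik and Fam181a above 0 for JQ1 alone, and no circle for iBD2 is filled.

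Markers of microglia moved with the 24 h treatments. The 5 markers (Aif1, Cx3cr1, Csf1r, Itgam, C1qa) summed to 0.389 to 1.17 FPKM with SKF plus JQ1, 12 to 16.1 with SKF, 3.67 to 5.54 with JQ1 and 28.4 to 34.0 with DMSO. All 5 fell with JQ1 and 4 fell with SKF by limma. Itgam was at 0 in every library with JQ1 alone, and Aif1 was at 0 in every library with SKF plus JQ1. Markers of other cells moved too with JQ1 at 24 h. Of 5 neuronal markers 2 fell and none rose, Tubb3 (-0.50 ± 0.06, limma adjusted p = 1.1e-06) and Rbfox3 (-0.23 ± 0.08, limma adjusted p = 0.025), and the 5 summed to 1410 to 1480 FPKM with JQ1 and 1520 to 1710 with DMSO. Of 7 markers of striatal projection neurons 1 rose and 2 fell, the falls being the dopamine receptor gene Drd1 (-1.07 ± 0.10, limma adjusted p = 9.1e-08) and the adenosine receptor gene Adora2a (-0.98 ± 0.11, limma adjusted p = 2.4e-06). With SKF plus JQ1 against SKF 1 of these 7 rose and 4 fell. These 7 summed to 280 to 338 FPKM with SKF plus JQ1, 361 to 379 with SKF, 321 to 357 with JQ1 and 344 to 392 with DMSO. Of 5 astrocyte markers 1 fell with JQ1, of 4 oligodendrocyte markers tested 2 rose and 1 fell, and Col1a1, the 1 fibroblast marker tested, fell (-0.77 ± 0.17, limma adjusted p = 0.0013). The part of these markers in the 24 h falls of Adamts1, Jade2, Rbm24 and Inhba was not tested. At 60 min none of the 5 was called in any comparison of 2 groups.

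Relatives and partners of the 8 genes were read from lists chosen with earlier results known. Counts with JQ1 at 24 h stand beside 28% of all genes called higher and 28.3% called lower. Counts at 60 min stand beside the following calls among all 13999 genes tested. With JQ1 these were 254 higher and 353 lower. With SKF they were 222 higher and 18 lower in experiment 1, and 291 higher and 41 lower in experiment 2. With iBD2 alone they were 26, all higher. Nothing particular to a list is read from its counts at either time. Tent5a, a paralog of Tent5b, had 2.10 and 2.13 FPKM with SKF and 1.35 and 1.27 with DMSO in experiment 2, and rose by 0.53 ± 0.10 (limma adjusted p = 0.0053). The SKF libraries of experiment 1 held 2.01 and 1.79 FPKM, against 1.38 and 1.39 with DMSO, and the difference of 0.35 ± 0.10 did not pass (limma adjusted p = 0.14). With JQ1 for 60 min it had 0.717 and 0.836 FPKM, and with DMSO 1.38 and 1.39, a difference of -0.56 ± 0.10 (limma adjusted p = 0.0025). Unlike Tent5b it was well above the filter at 24 h, where JQ1 lowered it by a difference of -0.32 ± 0.10 (limma adjusted p = 0.014). Of the 7 other poly(A) tail enzymes tested, counting Tent5a, 3 rose and 3 fell with JQ1 at 24 h. Tent4b, which adds mixed tails to mRNA, was among those that rose (0.58 ± 0.05, limma adjusted p = 1e-07), as was Papola, the canonical poly(A) polymerase (0.25 ± 0.04, limma adjusted p = 8e-05).

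Jade1, the paralog of Jade2, had 3.86 and 4.22 FPKM with JQ1 for 60 min and 5.34 and 5.94 with DMSO, and fell by a difference of -0.43 ± 0.08 (limma adjusted p = 0.0021). At 24 h it had 4.03 and 3.67 FPKM with JQ1 and 5.22 and 6.03 with DMSO, a difference of -0.49 ± 0.08 (limma adjusted p = 4.7e-05). It was the lone gene of 9 in the JADE and HBO1 list that fell with JQ1 at 24 h, and the other 8 rose, among them Brd1 (0.31 ± 0.06, limma adjusted p = 0.00023) and Brpf3 (0.30 ± 0.06, limma adjusted p = 0.00057), scaffolds of related acetyltransferase complexes. The list median was 0.30, against 0.01 for all genes.

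Of 17 genes tested for hyaluronan and its matrix, 1 rose and 8 fell with JQ1 at 24 h (median -0.12). Has2, a hyaluronan synthase, had 0.412 and 0.499 FPKM with JQ1 for 60 min and 1.18 and 1.32 with DMSO, and fell by a difference of -0.87 ± 0.11 (limma adjusted p = 4.7e-05). At 24 h its difference was -0.91 ± 0.11 (limma adjusted p = 2.1e-06). Has3, another synthase, had 5.70 and 7.38 FPKM with SKF and 4.31 and 4.33 with DMSO in experiment 2, and rose by 0.54 ± 0.11 (limma adjusted p = 0.0071). Experiment 1 gave 4.20 and 5.14 FPKM with SKF and 3.74 and 3.33 with DMSO, without overlap, and the difference of 0.35 ± 0.11 did not pass (limma adjusted p = 0.16). SKF plus JQ1 lowered it below SKF at 60 min by a difference of -0.51 ± 0.11 (limma adjusted p = 0.0057). Hapln1, which links hyaluronan to proteoglycans, fell with JQ1 at 24 h by a difference of -1.63 ± 0.18 (limma adjusted p = 1.8e-06) and was not called at 60 min.

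Of 14 ADAMTS proteases and TIMP inhibitors tested, none was called at 60 min with SKF, JQ1 or iBD2, and 1 rose and 7 fell with JQ1 at 24 h. The falls included Adamts3 (-0.45 ± 0.08, limma adjusted p = 0.00021), Adamts7 (-0.68 ± 0.10, limma adjusted p = 3.4e-05) and Timp4, an inhibitor of metalloproteases (-1.01 ± 0.17, limma adjusted p = 9.8e-05). Of 14 genes of activin signalling, Bambi, a decoy receptor of the TGF-beta family, was the 1 called with SKF at 60 min. In experiment 1, where 1 gene of the list was called higher, Bambi had 2.65 and 2.84 FPKM with SKF and 1.81 and 1.9 with DMSO. It had 5.35 and 4.99 FPKM with SKF and 2.70 and 3.03 with DMSO in experiment 2 (0.75 ± 0.10, limma adjusted p = 7.9e-05), and rose also with SKF over iBD2 (0.64 ± 0.12, limma adjusted p = 0.0063). With JQ1 at 24 h Bambi rose, as did 2 other genes of that list, Smad4 among them (0.19 ± 0.04, limma adjusted p = 0.00085), and none fell. Inhbb, which encodes the related beta B chain, fell with SKF plus JQ1 against SKF at 24 h (-0.45 ± 0.12, limma adjusted p = 0.0059). Of 10 splicing regulators tested, 2 rose and none fell with JQ1 at 60 min, and 4 rose and 2 fell at 24 h. Among them Rbm38, a relative of Rbm24, had 4.63 and 4.14 FPKM with JQ1 for 60 min and 2.78 and 2.42 with DMSO, and rose by 0.66 ± 0.09 (limma adjusted p = 0.00020), opposite in sign to Rbm24. At 24 h Rbfox1, a neuronal splicing factor, fell with JQ1 (-0.61 ± 0.08, limma adjusted p = 3.3e-06), and Celf1 rose (0.28 ± 0.05, limma adjusted p = 9e-05). Of 7 TEAD partners tested beside Fam181a, none was called at 60 min, and 1, Tead1, rose and 1, Vgll4, fell with JQ1 at 24 h. Vgll3 was called with SKF plus JQ1 against SKF at 24 h (0.34 ± 0.11, limma adjusted p = 0.015).

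**Figure D4:**
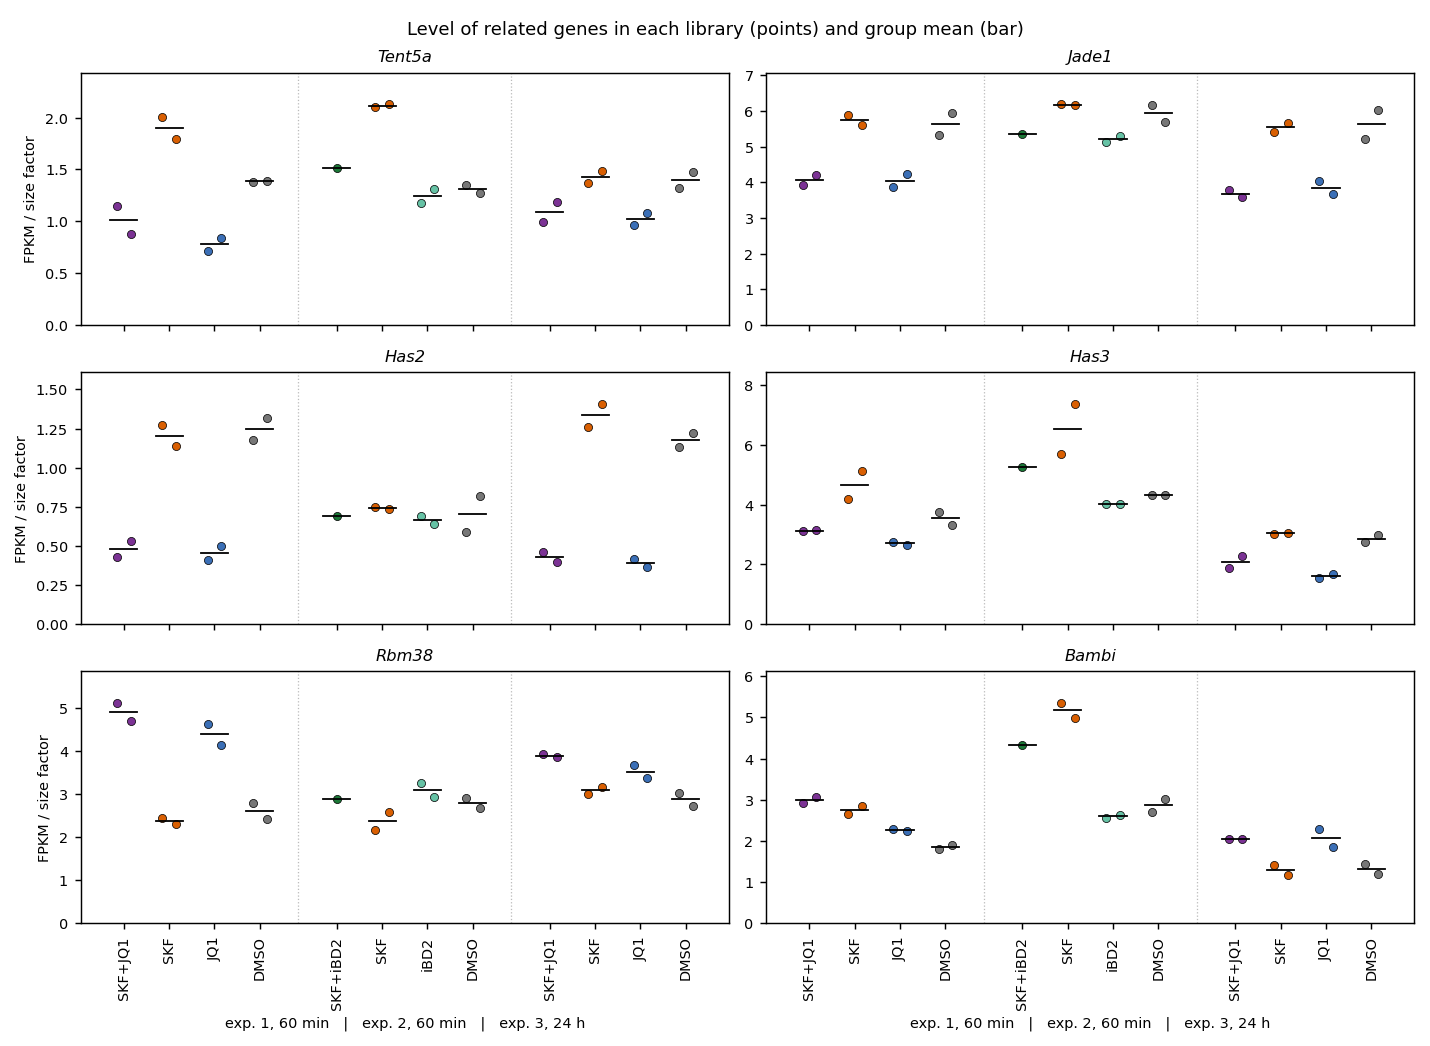
Level of 6 related genes (FPKM divided by the size factor, linear axis from 0) in every library (points) with the group mean (bar). Jade1 and Has2 lie lower in all JQ1 libraries than in the DMSO libraries of the same experiment at both times, while Rbm38 lies higher.

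The 8 genes were not alike over the 12 group means, each taken as the log2 difference from the DMSO mean of its experiment. Pearson correlations between them ran from 0.12 (Tent5b with Rbm24) to 0.97 (Adamts1 with Jade2), with 0.90 for Rbm24 with Inhba, and are given with no p. The DMSO means are 0 by construction, and the means share libraries and the groups used for the choice. Among 12769 named genes compared, the 5 most like the mean profile of the 8 were Itpkc (r = 0.98), Ptgs2 (0.98), Tent5a (0.976), Pdcl3 (0.973) and Sertad4 (0.971). Ptgs2, which codes for the cyclooxygenase induced by neuronal activity, differed from DMSO by -0.66 with SKF plus JQ1, 0.43 with SKF and -1.0 with JQ1 in experiment 1. The gene most like each member was LOC100909595 for Tent5b (0.99), Dact1 for Adamts1 (0.96), Klhl15 for Tnfaip6 (0.982), Rela for B630019K06Rik (0.942), RGD1309028 for Fam181a (0.993), Dhx38 for Jade2 (0.987), Slitrk3 for Rbm24 (0.981) and Socs4 for Inhba (0.97). RefSeq lists RGD1309028 as a synonym of Fam181a, so that likeness may not be to another gene.

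**Figure D5:**
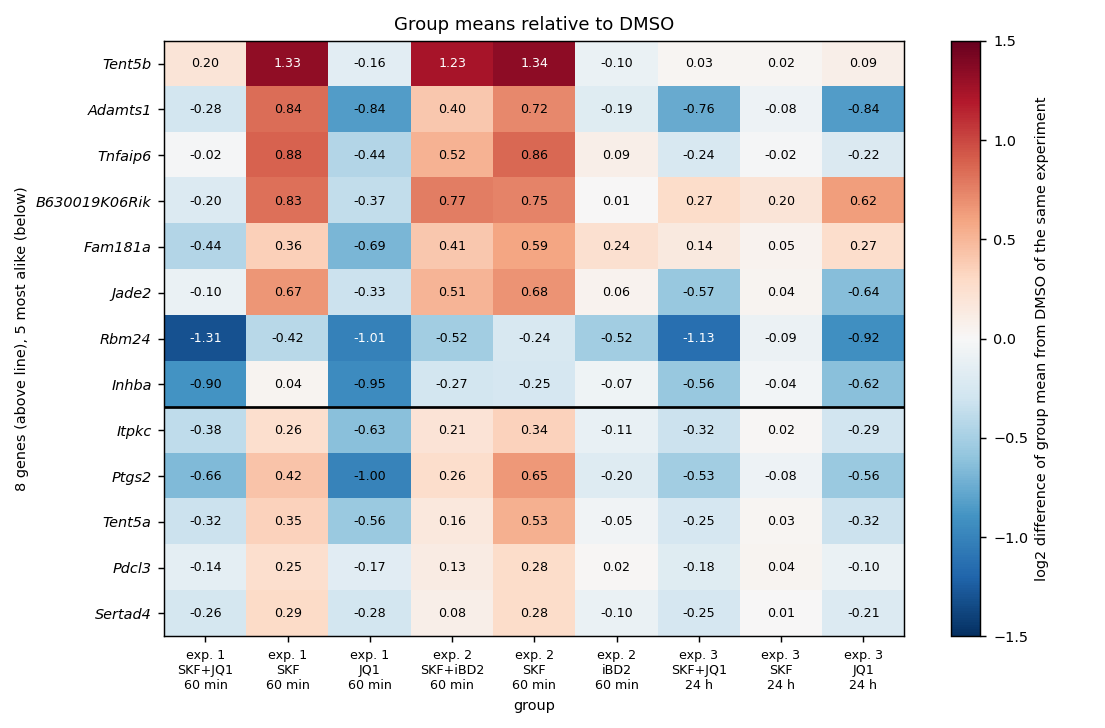
Group mean of each gene minus the DMSO mean of the same experiment (log2 scale, colour and printed value) for the 8 genes, above the line, and the 5 genes most like their mean profile, below it. Columns are groups, and with SKF at 60 min Rbm24 is at -0.42 in experiment 1 and -0.24 in experiment 2 and Inhba at 0.041 and -0.25, while the other 6 are above 0 in both.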

How the data were processed

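RNA of 23 libraries was measured by sequencing after removal of ribosomal RNA, in stranded libraries per the labels. The submitters' processing notes name Trim Galore, FastQC, STAR, StringTie and DESeq2, without versions, and the build Rnor_6.0. Each deposited table gives FPKM per transcript, as computed by the authors, and coverage (signal), the mean reads over each base, also as deposited. Strand use in counting is not stated in the sources used here, which leaves genes that overlap or run antisense uncertain.

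A gene's FPKM is the sum over its transcripts, scaled by median-ratio size factors of 0.95 to 1.07 and used as log2(FPKM + 0.5). Genes needed 0.5 FPKM in at least 2 libraries and a transcript of at least 200 nucleotides. Limma 3.58.1 in R 4.3.3 (trend, robust) was fitted to the 12 group means with 11 residual degrees of freedom, two-sided, with Benjamini-Hochberg adjustment over 13999 genes and calls at an adjusted p under 0.05. Comparisons of 1 experiment share their control libraries. Read pairs were estimated as coverage times length over 202 bases. They carry counting error only in part, since fragments have no molecular identifiers. The fit was tested on simulated data. Alternatives were unscaled FPKM, pseudocounts of 1 and 0.1, omission of the filter, a replicate block, each experiment alone, limma voom on estimated reads, and leaving out each library.

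The 8 genes and the lists were chosen with earlier results of these data known. From each list up to 3 genes with the smallest p among those called are named, and likeness was ranked by Pearson correlation over the 12 group means among genes with at least 1 FPKM in their highest group. Figures show 6 of these related genes. SKF plus iBD2 replicate 2 was not analysed here.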

Additional observations from a re-analysis of the deposited data

Results flagged for a closer look

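For 4 of the genes, the libraries of the groups did not overlap at either time and lay in opposite directions at 24 h and 60 min under the same contrast. The share of all genes that did so was not counted, so nothing particular to the 4 is read from this. In 1 direction of a single 60 min contrast, 15.7% to 26.6% of all genes did not overlap. That is not the share for opposite directions at both times. Differences of opposite sign whose libraries overlapped at 1 of the times are not listed. The difference between times was not tested in any of these cases, the 60 min values had served to choose the genes, and the times come from different experiments. With JQ1 against DMSO, B630019K06Rik differed by 0.62 at 24 h and by -0.37 at 60 min, Fam181a by 0.27 at 24 h and by -0.69 at 60 min, and Tent5b by 0.093 at 24 h and by -0.16 at 60 min. With SKF plus JQ1 against SKF, Fam181a differed by 0.094 at 24 h and by -0.81 at 60 min. With SKF against DMSO, Adamts1 differed by -0.081 at 24 h, and at 60 min by 0.84 in experiment 1 and 0.72 in experiment 2. With SKF plus JQ1 against JQ1, B630019K06Rik differed by -0.35 at 24 h and by 0.17 at 60 min, Fam181a by -0.12 at 24 h and by 0.25 at 60 min, and Tent5b by -0.059 at 24 h and by 0.36 at 60 min. Of the 24 h values, those of JQ1 against DMSO for B630019K06Rik and Fam181a passed the test.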

How the results depend on the processing

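Same-numbered libraries deviated from their group means with correlations of -0.27 to 0.37. With 2 libraries per group, whether the numbers pair the libraries cannot be told from these. With the replicate block, 1 of the 8 genes was called for SKF plus JQ1 against JQ1 at 24 h, in place of 0, and leaving out single libraries gave 0 to 1. The call of Adamts1 for SKF over iBD2 was lost with the block and in the other settings given for that gene above. Without the lone SKF plus iBD2 library its 3 comparisons gave no value. These changes of sign all concern differences that were not called. With FPKM as deposited, B630019K06Rik with iBD2 against DMSO was at -0.033, Tent5b in the SKF by iBD2 difference at 0.001 and Tnfaip6 in the SKF by JQ1 difference at 24 h at 0.012. With the block, B630019K06Rik was at -0.008 for SKF plus iBD2 against SKF and at -0.018 in the SKF by iBD2 difference, where Inhba was at -0.067. Tent5b in that difference was at 0.11 with a pseudocount of 0.1 and at 0.24 by voom, Tnfaip6 with SKF at 24 h at 0.10 by voom, and Tnfaip6 in the SKF by JQ1 difference at 24 h at 0.005 with a pseudocount of 1.

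Leaving out single libraries changed the sign over these ranges. SKF over iBD2 gave -0.077 to 0.081 for Rbm24. iBD2 against DMSO gave -0.23 to 0.04 for Tent5b, -0.08 to 0.10 for B630019K06Rik, -0.001 to 0.12 for Jade2 and -0.26 to 0.12 for Inhba. SKF plus iBD2 against SKF gave -0.001 to 0.048 for B630019K06Rik and -0.083 to 0.047 for Inhba. The SKF by iBD2 difference gave -0.15 to 0.12 for Tent5b, -0.075 to 0.10 for B630019K06Rik and -0.14 to 0.24 for Inhba. SKF at 24 h gave -0.26 to 0.21 for Tnfaip6, -0.03 to 0.13 for Fam181a, -0.20 to 0.029 for Rbm24 and -0.13 to 0.046 for Inhba. JQ1 at 24 h gave -0.45 to 0.016 for Tnfaip6. SKF plus JQ1 against SKF at 24 h gave -0.001 to 0.021 for Tent5b and -0.053 to 0.21 for B630019K06Rik. SKF plus JQ1 against JQ1 at 24 h gave -0.18 to 0.13 for Tnfaip6, -0.048 to 0.20 for Jade2 and -0.075 to 0.19 for Inhba. The SKF by JQ1 difference at 24 h gave -0.24 to 0.23 for Tnfaip6, -0.084 to 0.16 for Jade2 and -0.033 to 0.24 for Inhba.

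Counts of calls over all genes moved by over 1.5 times in these cases. With no filter, SKF over iBD2 gave 405 calls in place of 204, SKF plus iBD2 against SKF 202 in place of 3, the SKF by iBD2 difference 145 in place of 2, and the SKF by JQ1 difference 6 in place of 0 at 60 min and 27 in place of 6 at 24 h. In fits of 1 experiment alone, SKF in experiment 1 gave 157 in place of 240, JQ1 at 60 min 387 in place of 607, SKF over JQ1 at 60 min 113 in place of 178, SKF plus iBD2 against SKF 7 in place of 3, SKF at 24 h 84 in place of 208, SKF over JQ1 at 24 h 37 in place of 142 and the SKF by JQ1 difference at 24 h 1 in place of 6. iBD2 against DMSO gave 9 with FPKM as deposited and 4 by voom in place of 26. The SKF by iBD2 difference gave 1 as deposited in place of 2, and the SKF by JQ1 difference gave 1 as deposited and 1 by voom in place of 0 at 60 min, and 0 by voom in place of 6 at 24 h. Leaving out single libraries gave 64 to 225 calls for SKF at 24 h (64 without SKF replicate 6, 78 without DMSO replicate 5), and 47 to 205 for SKF over JQ1 at 24 h (47 and 49 without JQ1 replicates 5 and 6, 65 without SKF plus JQ1 replicate 5). It gave 201 to 355 for SKF in experiment 2 (201 without SKF replicate 2), 313 to 633 for JQ1 at 60 min (313 and 383 without JQ1 replicates 5 and 6, 354 without DMSO replicate 6), 441 to 1007 for SKF plus JQ1 against SKF at 60 min (441 and 563 without SKF plus JQ1 replicates 5 and 6, 597 without SKF replicate 6) and 105 to 187 for SKF over JQ1 at 60 min (112 and 117 without SKF plus JQ1 replicates 5 and 6, 105 without JQ1 replicate 5). It gave 5 to 27 for iBD2 against DMSO (5 without either iBD2 library), 2 to 5 for SKF plus iBD2 against SKF, 1 to 4 for the SKF by iBD2 difference, and 0 to 3 at 60 min and 3 to 8 at 24 h for the SKF by JQ1 difference. The cause was not tested. Depth limits Tent5b, with 3.99 to 17.0 estimated read pairs per library outside the 60 min SKF groups.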
